A study of Saccharomyces cerevisiae with 18 samples.

Results

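The genes described here encode the proteins of the mitochondrial ribosome of *Saccharomyces cerevisiae*. They were taken by name, as every gene on the array whose symbol begins with MRPL, MRPS, MRP or RSM followed by a digit, which gave 66 of the 5698 genes tested. Of these, 37 encode proteins of the large subunit and 27 proteins of the small subunit. The other 2 are *RSM22*, which the deposited annotation gives as a small subunit protein and a predicted methyltransferase, and *MRP8*, which it gives as a protein of unknown function once thought to be mitoribosomal. By the protein family names in RefSeq, 40 members have a counterpart in the bacterial ribosome and 24 do not. RefSeq gives none of these family names for *RSM22* and *MRP8*.

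Yeast mitochondria keep a small genome that codes mainly for core subunits of the respiratory chain and of ATP synthase, and a ribosome of bacterial descent translates these messages inside the organelle. The rRNAs and the protein Var1 of this ribosome come from the mitochondrial DNA, while the other proteins are encoded in the nucleus, made in the cytosol and imported. Cytosolic and mitochondrial ribosomes therefore have separate sets of protein genes. Many of the nuclear messages for mitochondrial ribosomal proteins are bound by the RNA-binding protein Puf3, and the system is dispensable while yeast ferments glucose.

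The RNA came from 12 arrays in 4 groups of 3 biological replicates. The groups were W303-Δ*sky1* with cisplatin, W303-Δ*sky1* untreated, W303 with cisplatin and W303 untreated. W303 is a haploid laboratory strain of mating type a with mutations in *ade2*, *can1*, *his3*, *leu2*, *trp1* and *ura3*. W303-Δ*sky1* is its derivative that lacks *SKY1*, the gene of a protein kinase that acts on RNA-binding proteins with serine and arginine repeats. The sources used here give neither the marker of this deletion nor whether the derivative kept all of these mutations. All cells grew in complete synthetic medium, untreated cells received DMSO alone, and treated cells received 600 µM cisplatin, a platinum drug that binds DNA, for 4 h in darkness. By the methods of the study the cultures of each strain were divided into a control and a treated part. That arrays of a strain with the same number share a culture is likely but not stated. The deletion strain is a single derivative, and whether it is 1 clone is not given in the sources used here. Signals are log2 values from RMA (robust multi-array average, which corrects, normalizes and summarizes probe signals), deposited in 3 tables of 6 arrays that were normalized separately, 1 table for each comparison. A member was called higher or lower at a limma p under 0.05 after Benjamini-Hochberg adjustment over all 5698 genes, and the further threshold of the study, a change of at least 1.6-fold with p under 0.01, was applied on top of it. RNA of whole cultures was measured, so a change in some of the cells and a smaller change in all of them cannot be told apart.

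*SKY1* itself had signals of 0.54, 1.33 and 0.56 in untreated W303-Δ*sky1*, and of 1.43, 1.17 and 1.03 in treated W303-Δ*sky1*, against 7.98 to 8.18 on the W303 arrays of all tables. The a-specific genes *MFA1*, *MFA2*, *STE2* and *BAR1* lay above 6 on every array of both strains, and the α-specific genes *MF(ALPHA)1*, *MF(ALPHA)2* and *STE3* between 1.07 and 2.65, which is the pattern of a cells. The levels were not equal in the strains. Of the 4 a-specific genes 3 were called lower in untreated W303-Δ*sky1*, all past 1.6-fold. In treated W303-Δ*sky1* 4 were called lower, 2 of them past 1.6-fold. Of all genes 27.4% and 37.8% were lower in these comparisons. Of the 3 α-specific genes 1 was called higher in untreated W303-Δ*sky1*, by 0.41, where 24.9% of all genes were. Each member has 1 probe set of its own, shared with no other gene. All 66 lay above background on every array, taken as the 95th percentile of the *Schizosaccharomyces pombe* probe sets on the same array, which was 1.24 to 1.35, while the members had signals of 4.00 to 10.7. The lowest of these signals belong to *MRPL20* (mL58, large subunit), at 4.00 to 4.59, and the highest to *MRP8*, at 10.3 to 10.7. They describe each probe set only, since signals of different probe sets cannot be set against each other. *MRPL20* was called in none of the comparisons.

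In each of the 4 groups replicate 2 was most often the highest of its 3 arrays for the members, and most of all in untreated W303. W303 untreated replicate 2 had the highest signal of its 3 replicates for 43 of the 66 members in the table of untreated strains, and for 44 in the table of W303 with and without cisplatin, against 1940 and 1932 of all 5698 genes. In the first of these tables the median signal of the members was 7.23 on this array, and 7.08 and 7.06 on the other 2 arrays of the group. W303-Δ*sky1* untreated replicate 2 was the highest of its 3 for 41 of the 66, against 2254 of all genes. With cisplatin, replicate 2 was the highest for 36 members in W303-Δ*sky1*, against 1685 of all genes. In treated W303 it was the highest for 28 and 33 members in its 2 tables, against 1373 and 1369 of all genes. Both comparisons with untreated W303 are therefore also given without W303 untreated replicate 2.

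**Figure D1:**
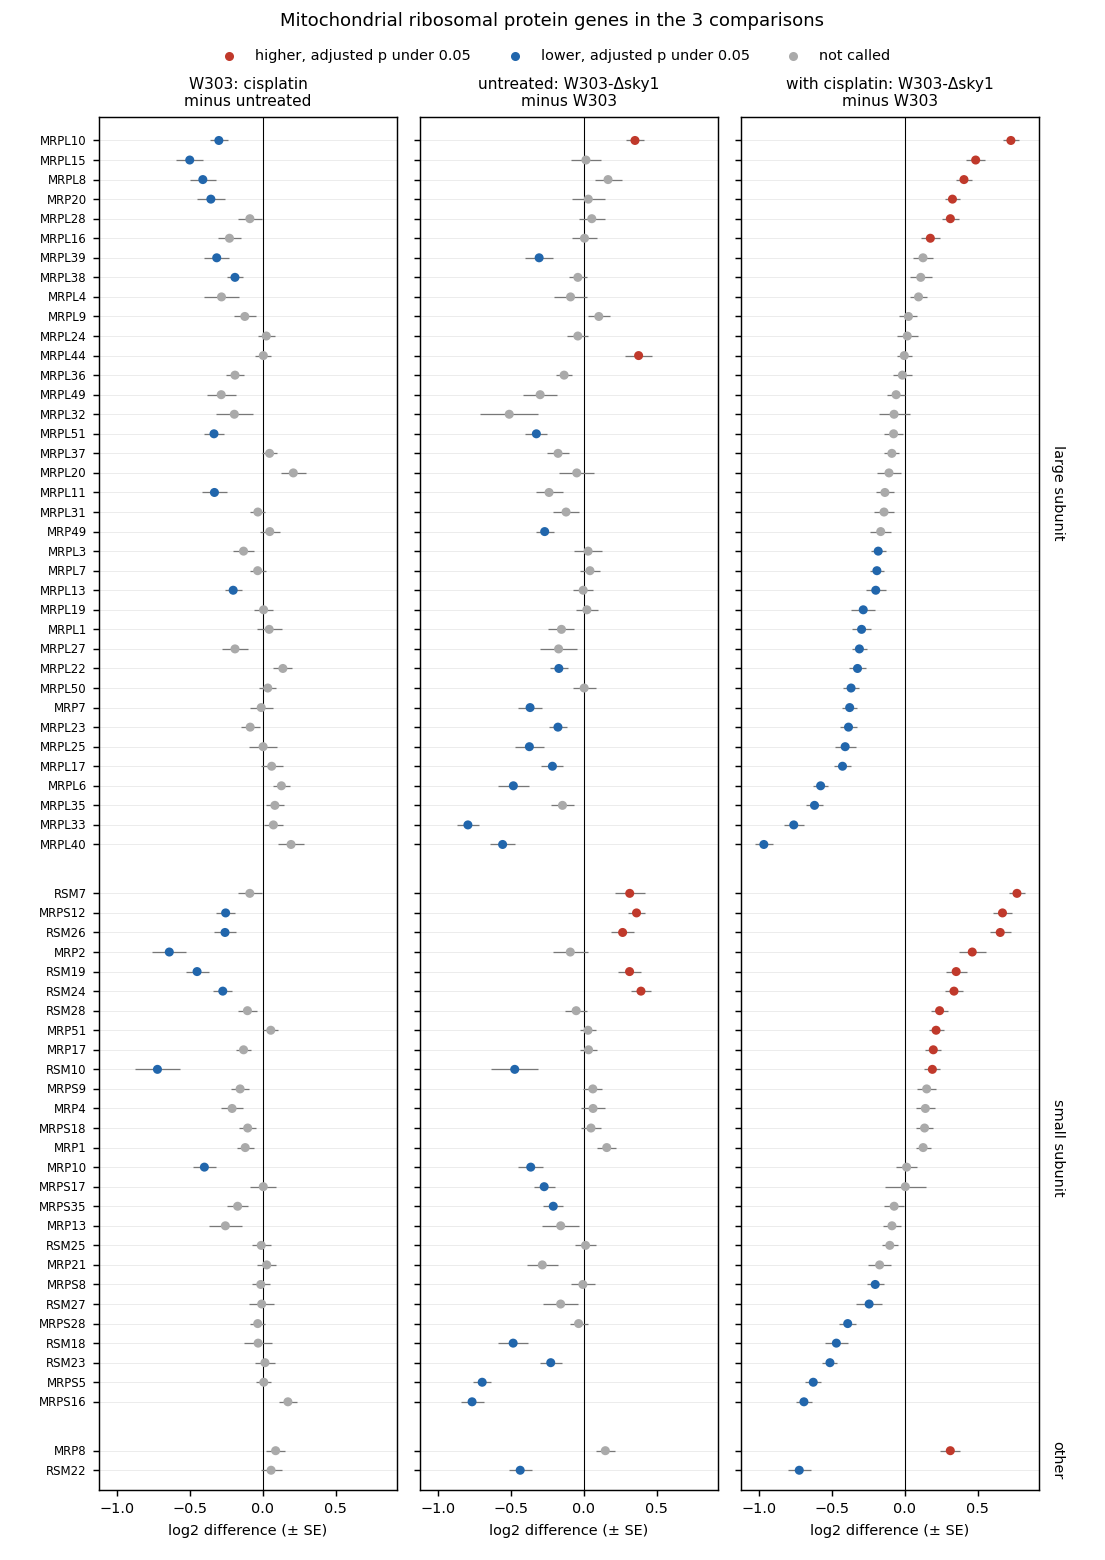
Log2 difference of each of the 66 members (points, with bars of 1 SE from limma) in the 3 comparisons, grouped by subunit and ordered by the difference between the cisplatin-treated strains. Red points are called higher and blue points lower (7 and 20 members between the untreated strains, 17 and 24 between the treated strains), and with cisplatin in W303 no point is red and 16 are blue.

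With cisplatin in W303 a part of the mitochondrial ribosomal protein genes was called lower. None was called higher in the fit without the replicate number as a block. Of the 66 members 16 were lower with cisplatin (24.2%), where 15.3% of all genes tested were lower, and 0 were higher, where 13.2% of all genes were. With limma 26 of the 66 members had an unadjusted p under 0.05, where 2400 of all 5698 genes had one. Of these 26 members 2, *MRPS16* and *MRPL20*, had positive differences. Both subunits were represented, by 9 of 37 large and 7 of 27 small subunit genes. The median log2 difference was -0.09 over the members and 0.00 over all genes. With the replicate number as a block 1 member was higher and 19 were lower, and the share of all genes called in that fit is not given here.

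The largest decrease was that of *RSM10*, which encodes the S10 protein of the small subunit (uS10m) and, by the deposited annotation, is needed for viability, unlike most mitoribosomal protein genes. Its signals were 8.67, 8.79 and 8.76 in treated W303, against 9.11, 9.80 and 9.47 in untreated W303. The groups did not overlap, the untreated arrays were spread far more widely than the treated ones, and the highest signal was that of W303 untreated replicate 2. The difference was -0.72 ± 0.15 (SE, n = 3 each), or 1.65-fold lower (limma, adjusted p = 0.0119). *RSM10* was the only member past 1.6-fold, where 1.53% of all genes were lower and 1.58% higher by that threshold.

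*MRP2*, for the S14 protein of the small subunit (uS14m), followed with 5.69, 6.01 and 5.94 in treated W303, against 6.30, 6.67 and 6.58 in untreated W303. All treated arrays lay below all untreated ones, with a difference of -0.64 ± 0.12 (limma, adjusted p = 0.00638). *MRPL15* (mL57, a large subunit protein without a bacterial counterpart) had 6.86, 6.97 and 7.07 in treated W303, against 7.31, 7.62 and 7.46 in untreated W303, a difference of -0.50 ± 0.09 (limma, adjusted p = 0.00675). Here too no treated array reached an untreated one.

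*RSM19*, for the S19 protein of the small subunit, had 6.63, 6.66 and 6.72 with cisplatin, against 7.06, 7.28 and 7.02 without it, and a difference of -0.45 ± 0.08 (limma, adjusted p = 0.0055). *MRPL8* (bL17m, of the large subunit) had 6.90, 6.90 and 6.76 with cisplatin, against 7.30, 7.39 and 7.09 without it, and *MRP10* (mS37, a small subunit protein with twin cysteine motifs) had 7.19, 7.28 and 7.40 with cisplatin, against 7.57, 7.75 and 7.74 without it. The differences of these 2 genes were -0.41 and -0.40. The other 4 of the 10 largest decreases were those of *MRP20* (uL23m, whose bacterial counterpart lies at the exit of the peptide tunnel, -0.36), *MRPL51* (mL43, -0.33), *MRPL11* (uL10m, of the stalk base in bacteria, -0.33) and *MRPL39* (bL33m, -0.32). The remaining 6 genes called fell by 0.19 to 0.30 on the log2 scale, among them *MRPL10* (uL15m), with 6.53, 6.64 and 6.57 in treated W303, against 6.83, 6.95 and 6.85 in untreated W303. In all 16 genes the treated and untreated arrays did not overlap. Without regard to p, 26 members (39.4%) had all treated arrays below all untreated ones, where 23.9% of all genes did, and 6 had the reverse (9.09%, where 22.6% of all genes did).

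The counts moved with single arrays. The share of all genes called in these fits is not given here. A wider change in calls therefore cannot be told apart from a change in the members. The 16 decreases became 22 without W303 untreated replicate 1, 13 without W303 untreated replicate 2, 8 without W303 untreated replicate 3, 8 without W303 cisplatin replicate 1, 8 without W303 cisplatin replicate 2 and 9 without W303 cisplatin replicate 3, and the median of the members was -0.05 without W303 untreated replicate 2. Past 1.6-fold there were 0 members without W303 untreated replicate 2 or without W303 cisplatin replicate 1, and 2 without W303 untreated replicate 1 or without W303 cisplatin replicate 2. *MRP20*, *MRPL11* and *MRPL39* lost their calls without W303 untreated replicate 3 (limma, adjusted p = 0.0626, 0.0865 and 0.052 in that order), without W303 cisplatin replicate 1 (0.0749, 0.0664 and 0.095) and without W303 cisplatin replicate 2 (0.077, 0.0872 and 0.0981). *MRP20* and *MRPL11* also lost theirs without W303 cisplatin replicate 3 (limma, adjusted p = 0.101 and 0.0863), and *MRPL51* without W303 cisplatin replicate 2 (limma, adjusted p = 0.0522).

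**Figure D2:**
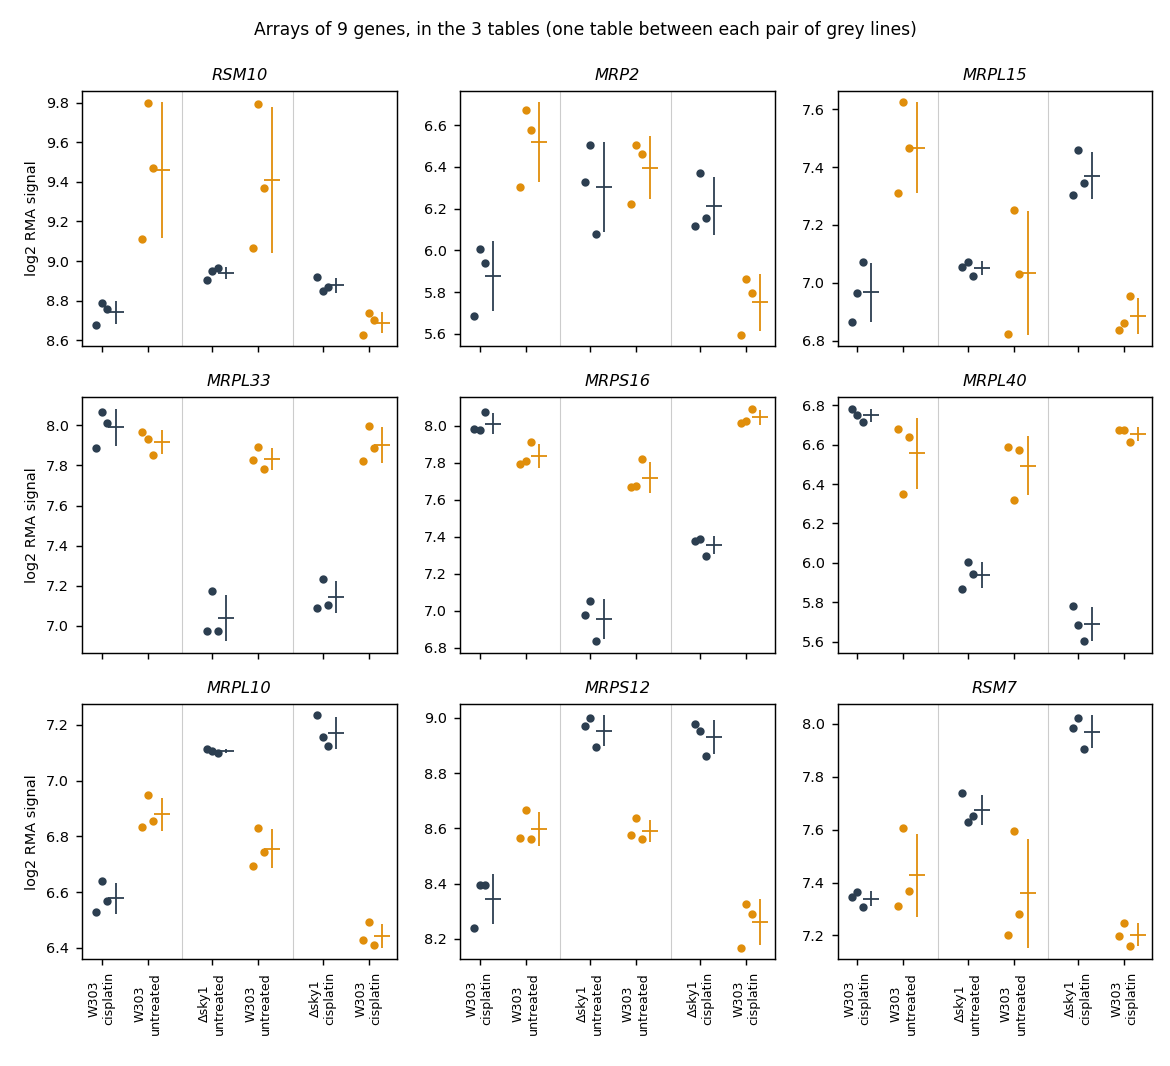
Log2 RMA signals of 9 members on each array (points, in replicate order) with the mean and SD of each group beside them, for the 3 separately normalized tables between grey lines. In each table the dark points are treated W303 or W303-Δ*sky1* and the orange points the W303 group they are set against, and *RSM10* shows the wide spread of the untreated W303 arrays, from 9.11 to 9.80 in the first table.

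Between the untreated strains single members differed in both directions. Of the 66, 20 were lower in untreated W303-Δ*sky1* (30.3%), close to the 27.4% of all genes that were lower, and 7 were higher (10.6%), where 24.9% of all genes were higher. Past 1.6-fold, 3 were lower (5.28% of all genes were) and 0 were higher (4.93% of all genes were). Without regard to p, all arrays of W303-Δ*sky1* lay below all of W303 for 25 members (37.9%, where 32.5% of all genes did) and above them for 10 (15.2%, where 29.5% of all genes did). The median difference was -0.09 over the members and -0.02 over all genes. It was -0.03 over the members without W303 untreated replicate 2, with 16 lower and 8 higher. The decreases numbered 11 without W303 untreated replicate 3, and 12 when replicate 1, or replicate 3, of untreated W303-Δ*sky1* was left out. The increases numbered 4 without W303 untreated replicate 3. For fits with an array left out, the share of all genes called is again not given.

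The decreases past 1.6-fold belonged to *MRPL33*, *MRPS16* and *MRPS5*, all with bacterial counterparts. *MRPL33*, for the large subunit protein uL30m, had 6.97, 7.17 and 6.97 in untreated W303-Δ*sky1*, against 7.83, 7.89 and 7.78 in untreated W303. The gap between the strains was several times the spread within them, at -0.79 ± 0.08 (limma, adjusted p = 0.000143), or 1.73-fold lower. *MRPS16*, for the small subunit protein bS16m, had 6.98, 7.05 and 6.84 in W303-Δ*sky1*, against 7.67, 7.67 and 7.82 in W303, a difference of -0.76 ± 0.08 (limma, adjusted p = 0.000191). *MRPS5*, for uS5m, whose bacterial counterpart lines the path where the message enters, had 5.87, 5.86 and 5.88 in W303-Δ*sky1*, against 6.53, 6.66 and 6.51 in W303, a difference of -0.70 ± 0.06 (limma, adjusted p = 0.000122). For each of these genes the lowest W303 array stood above the highest W303-Δ*sky1* array.

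*MRPL40* (uL24m, of the large subunit) had 5.87, 6.00 and 5.94 in W303-Δ*sky1*, against 6.59, 6.32 and 6.57 in W303, and was lower by -0.56 ± 0.09 (limma, adjusted p = 0.00128). *RSM18* (bS18m, of the small subunit) had 7.99, 8.32 and 8.08 in W303-Δ*sky1*, against 8.49, 8.73 and 8.61 in W303, and *MRPL6* (uL6m, of the large subunit) had 6.28, 6.43 and 6.03 in W303-Δ*sky1*, against 6.81, 6.66 and 6.72 in W303. Both stood at -0.48 without overlap of the strains. Smaller decreases were those of *RSM22* (-0.43), *MRPL25* (mL59, -0.37) and *MRP7* (bL27m, next to the peptidyl transferase centre in bacteria, -0.37). *MRPL25* lost its call without W303 untreated replicate 3 (limma, adjusted p = 0.0603). The fitted difference of *RSM10* was -0.47 ± 0.16 (limma, adjusted p = 0.0401), from 8.90, 8.95 and 8.96 in W303-Δ*sky1*, against 9.06, 9.80 and 9.37 in W303. Its call was lost without W303 untreated replicate 3 (limma, adjusted p = 0.0796) and on leaving out replicate 1, 2 or 3 of untreated W303-Δ*sky1* (0.103, 0.0872 and 0.0827).

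The 7 members that were higher in untreated W303-Δ*sky1* included 5 of the small subunit. *RSM24* (mS35) had 7.76, 7.86 and 7.73 in W303-Δ*sky1*, against 7.33, 7.47 and 7.39 in W303, a difference of 0.39 ± 0.07 (limma, adjusted p = 0.00206). *MRPS12*, for the S12 protein that lies at the decoding centre of the small subunit, had 8.97, 9.00 and 8.89 in W303-Δ*sky1*, against 8.58, 8.64 and 8.56 in W303, a difference of 0.36 ± 0.06 (limma, adjusted p = 0.00181). *MRPL10* (uL15m, of the large subunit) had 7.11, 7.10 and 7.10 in W303-Δ*sky1*, against 6.69, 6.83 and 6.74 in W303, a difference of 0.35 ± 0.06 (limma, adjusted p = 0.00213). The arrays of the strains did not overlap for any of these 3 genes, and for *MRPL10* those of W303-Δ*sky1* were almost equal.

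*MRPL44* (mL53, of the large subunit) had 5.70, 6.03 and 5.97 in W303-Δ*sky1*, against 5.54, 5.52 and 5.50 in W303, a difference of 0.38, and stood at 0.00 between the treated strains. The other increases were those of *RSM7* (uS7m, 0.31), *RSM19* (uS19m, 0.31) and *RSM26* (mS42, 0.27). The call of *RSM19* was lost without W303 untreated replicate 3 (limma, adjusted p = 0.0502). *RSM7* had 7.74, 7.63 and 7.65 in W303-Δ*sky1*, against 7.20, 7.59 and 7.28 in W303, so that the highest W303 array came close to the lowest of W303-Δ*sky1*, and its call was lost without W303 untreated replicate 1 or 3 (limma, adjusted p = 0.0907 and 0.11) and when untreated W303-Δ*sky1* lost its replicate 1, 2 or 3 (0.105, 0.0643 and 0.0728). The call of *RSM26* was lost without W303 untreated replicate 1 or 3 (limma, adjusted p = 0.0528 and 0.0784) and when untreated W303-Δ*sky1* lost its replicate 1 or 2 (0.0698 and 0.0643).

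Between the strains under cisplatin, 24 members were lower in W303-Δ*sky1* (36.4%), close to the 37.8% of all genes that were lower, and 17 were higher (25.8%), where 32.8% of all genes were higher. Past 1.6-fold, 4 were lower and 2 were higher, where 11.2% and 8.78% of all genes were. Without regard to p, the strains lay apart for 26 members with W303-Δ*sky1* lower (39.4%, where 39.2% of all genes did) and for 20 with W303-Δ*sky1* higher (30.3%, where 34.7% of all genes did). The median difference was -0.07 over the members and -0.03 over all genes. The number higher past 1.6-fold was 4 without W303-Δ*sky1* cisplatin replicate 3. By subunit, 16 of the 37 large subunit genes were lower (43.2%) and 6 higher (16.2%) with a median of -0.14, and 7 of the 27 small subunit genes were lower (25.9%) and 10 higher (37.0%) with a median of 0.13, beside the same 37.8% and 32.8% of all genes. Between the untreated strains the shares lower were nearly equal, at 29.7% of the large and 29.6% of the small subunit genes, and close to the 27.4% of all genes, while 5.41% of the large and 18.5% of the small subunit genes were higher, where 24.9% of all genes were. No difference between the subunits was tested.

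The largest decrease was that of *MRPL40*, which had 5.78, 5.68 and 5.60 in treated W303-Δ*sky1*, against 6.68, 6.67 and 6.61 in treated W303. The difference was -0.96 ± 0.06, or 1.95-fold lower (limma, adjusted p = 2.24e-06). *MRPL33* had 7.09, 7.23 and 7.10 in W303-Δ*sky1*, against 7.82, 8.00 and 7.89 in W303, a difference of -0.76 ± 0.07 (limma, adjusted p = 1.5e-05). *RSM22* had 5.98, 5.83 and 5.97 in W303-Δ*sky1*, against 6.77, 6.51 and 6.66 in W303, a difference of -0.72 ± 0.08 (limma, adjusted p = 4.88e-05). For all of them the strains lay clearly apart, and *RSM22* had a wider spread than the others within W303.

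*MRPS16* had 7.38, 7.39 and 7.30 in treated W303-Δ*sky1*, against 8.02, 8.03 and 8.09 in treated W303, a difference of -0.69 ± 0.05 (limma, adjusted p = 7.6e-06). *MRPS5* had 5.94, 5.91 and 5.83 in W303-Δ*sky1*, against 6.53, 6.53 and 6.49 in W303, and differed by -0.63. *MRPL35* (mL38, of the large subunit) had 6.39, 6.27 and 6.31 in W303-Δ*sky1*, against 6.98, 6.87 and 6.98 in W303, and differed by -0.62. In all 3 genes the arrays of each strain kept close together. *MRPL6* differed by -0.58. *RSM23*, the yeast relative of the mammalian apoptosis mediator DAP3 (mS29), differed by -0.51, *RSM18* by -0.47 and *MRPL17* (mL46) by -0.43. Among the 24 members called lower the strains overlapped only in *RSM27* (mS33), where W303-Δ*sky1* had 5.75, 6.01 and 5.64, against 6.00, 6.05 and 6.08 in W303.

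The largest increase was that of *RSM7*, for the S7 protein, which in bacteria starts the assembly of the head of the small subunit. It had 7.99, 8.02 and 7.90 in treated W303-Δ*sky1*, against 7.20, 7.25 and 7.16 in treated W303, a difference of 0.77 ± 0.06, or 1.7-fold (limma, adjusted p = 5.21e-06). *MRPL10* had 7.23, 7.15 and 7.12 in W303-Δ*sky1*, against 6.43, 6.49 and 6.41 in W303, a difference of 0.73 ± 0.06 (limma, adjusted p = 6.61e-06). Both were past 1.6-fold, and no array of W303 reached the lowest of W303-Δ*sky1*.

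*MRPS12* had 8.98, 8.95 and 8.86 in treated W303-Δ*sky1*, against 8.17, 8.32 and 8.29 in treated W303, a difference of 0.67 ± 0.06 (limma, adjusted p = 2.16e-05). *RSM26* had 6.66, 6.46 and 6.39 in W303-Δ*sky1*, against 5.86, 5.85 and 5.84 in W303, a difference of 0.65 ± 0.07 (limma, adjusted p = 5.8e-05). The W303-Δ*sky1* arrays of *RSM26* were spread and those of W303 nearly equal, without overlap. *MRPL15* had 7.30, 7.46 and 7.34 in W303-Δ*sky1*, against 6.84, 6.86 and 6.95 in W303 (0.49), and *MRP2* had 6.12, 6.37 and 6.15 in W303-Δ*sky1*, against 5.60, 5.86 and 5.79 in W303 (0.46). Neither gene had overlapping strains. Next came *MRPL8* (0.41), *RSM19* (0.35), *RSM24* (0.34) and *MRP20* (0.33). *MRP8*, of unknown function, had 10.58, 10.73 and 10.65 in W303-Δ*sky1*, against 10.25, 10.44 and 10.33 in W303, a difference of 0.31 ± 0.07 (limma, adjusted p = 0.00316). It was called in neither of the other comparisons, at 0.15 between the strains without cisplatin and at 0.09 with the drug in W303.

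The 2 strain comparisons share no array, but they are not independent, since by the methods the untreated and treated arrays of a strain come from divided cultures. Of the members called lower in W303-Δ*sky1*, 13 were lower both without and with cisplatin, which is 65.0% of the 20 and 54.2% of the 24. Over all genes the shares were larger, with 1305 lower in both, or 83.7% of 1559 and 60.6% of 2154. The 13 members were *MRPL33*, *MRPL40*, *MRPL6*, *MRP7*, *MRPL17*, *MRPL22*, *MRPL23* and *MRPL25* of the large subunit, *MRPS16*, *MRPS5*, *RSM18* and *RSM23* of the small subunit, and *RSM22*. In none of these 13 was a difference called with cisplatin in W303, where *MRPL33* was at 0.07, *MRPS16* at 0.17, *MRPS5* at 0.01 and *MRPL40* at 0.19. Of the members called higher, 6 were higher in both, which is 85.7% of the 7 and 35.3% of the 17, where over all genes 1146 were higher in both, or 80.8% of 1419 and 61.3% of 1869. The 6 members were *MRPL10*, *MRPS12*, *RSM7*, *RSM19*, *RSM24* and *RSM26*, of which all but *MRPL10* belong to the small subunit.

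With cisplatin in W303 these 6 genes stood at -0.30 for *MRPL10*, -0.25 for *MRPS12*, -0.09 for *RSM7*, -0.45 for *RSM19*, -0.27 for *RSM24* and -0.26 for *RSM26*, and all but *RSM7* were called lower. A further 4 members were lower with cisplatin in W303 and higher in W303-Δ*sky1* only under cisplatin, without a call between the untreated strains. They were *MRP2* (-0.64 for the drug in W303, -0.09 between the untreated strains and 0.46 between the treated strains), *MRPL15* (-0.50, 0.02 and 0.49 in the same order), *MRPL8* (-0.41, 0.17 and 0.41) and *MRP20* (-0.36, 0.03 and 0.33). These comparisons share the W303 arrays, so that a low value of treated W303 enters both. *MRP10*, *MRPL39* and *MRPL51* were lower with cisplatin in W303 and lower between the untreated strains, with values of 0.01, 0.13 and -0.08 between the treated strains. Both of these decreases are set against untreated W303, so that a high value of untreated W303 enters both. In all, 16 members were called in none of the 3 comparisons. The shares of all genes with these patterns of calls over the 3 comparisons are not given here. None of the patterns is therefore shown to be particular to the members.

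The response of W303-Δ*sky1* itself to cisplatin was not normalized in any 1 table. It can be linked only by adding the treated strain difference to the drug effect in W303 and taking off the untreated strain difference, across tables normalized separately and with no test. So linked, the median was -0.06 over the members, from -0.41 for *RSM19* to 0.37 for *RSM7*, and -0.03 over all genes. The linked values were negative for 45 members and positive for 21, and over all 5698 genes negative for 3072 and positive for 2626.

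*MRPS12* and *RSM19* are neighbours on the same strand, and no other members were adjacent in the RefSeq order of protein-coding genes. Their values were -0.25 and -0.45 with cisplatin in W303, 0.36 and 0.31 for the deletion without the drug, and 0.67 and 0.35 for the deletion under the drug, in the order *MRPS12* and *RSM19*.

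Of the mitoribosomal proteins that go by other names, 15 were on the array and *VAR1*, the mitochondrial gene, was not matched. None of them passed 1.6-fold. In treated W303 1 was lower (6.67%), *MNP1* (bL12m of the stalk, -0.29), and 0 were higher, where 15.3% and 13.2% of all genes were. Between the untreated strains 2 were higher, *NAM9* (uS4m, 0.32) and YDR115W (bL34m, 0.54), and 1 was lower, *SWS2* (uS13m, -0.21). These shares were 13.3% and 6.67%, where 24.9% and 27.4% of all genes were. Between the treated strains 4 were higher, with YDR115W at 0.55, *PET123* at 0.43, *NAM9* at 0.31 and *MNP1* at 0.31. A further 6 were lower by 0.15 to 0.35 on the log2 scale (*SWS2*, *IMG2*, *EHD3*, *RML2*, *RTC6* and *QRI5*). The shares were 26.7% higher and 40.0% lower, where 32.8% and 37.8% of all genes were. YDR115W lies tail to tail with the member *MRPL1* (uL1m), which stood at -0.15 between the untreated strains, without a call, and at -0.30 between the treated strains. The other 5 genes, *YML6*, *IMG1*, *MHR1*, *FYV4* and YNL122C, were called in none of the comparisons.

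Genes that serve the mitochondrial ribosome had calls in both directions. Of 9 translation factors, *IFM1*, the initiation factor, had 5.98, 5.96 and 6.09 in treated W303-Δ*sky1*, against 7.00, 6.76 and 7.02 in treated W303, a difference of -0.92 (limma, adjusted p = 1.42e-05). *GUF1*, a GTPase of translation, differed by -0.87 (limma, adjusted p = 2.5e-06). Between the treated strains 3 factors were lower (33.3%) and 2 higher (22.2%), where 37.8% and 32.8% of all genes were. Of 14 mitochondrial aminoacyl-tRNA synthetases, which charge the tRNAs, 8 were higher (57.1%) and 1 lower (7.14%) between the untreated strains, with a median of 0.27. Of all genes 24.9% were higher and 27.4% lower there. Between the treated strains 6 were higher (42.9%) and 2 lower (14.3%) with a median of 0.15, where 32.8% and 37.8% of all genes were. With cisplatin in W303 0 were higher and 2 lower (14.3%), where 13.2% and 15.3% of all genes were. *DIA4*, the seryl-tRNA synthetase, had 3.38, 3.49 and 3.47 in treated W303-Δ*sky1*, against 2.68, 2.77 and 2.79 in treated W303, a difference of 0.70 (limma, adjusted p = 1.01e-05). The strains did not overlap for *IFM1* or *DIA4*.

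Among 8 genes for assembly and rRNA modification, *MRH4*, an RNA helicase of large subunit assembly, differed by -0.84 between the untreated strains (limma, adjusted p = 0.000716), and *MSS116*, another RNA helicase, by -0.89 between the treated strains (limma, adjusted p = 7.84e-06). *OXA1*, the inner membrane insertase to which the ribosome docks, was higher in W303-Δ*sky1*, by 0.84 without and by 0.69 with cisplatin (limma, adjusted p = 6.98e-05 and 0.000323). *YLH47* was lower by -0.79 between the treated strains and stood at -0.01 between the untreated ones. Of the 18 activators of single mitochondrial messages, 7 were lower (38.9%) and 3 higher (16.7%) between the untreated strains. Of all genes 27.4% were lower and 24.9% higher there. Between the treated strains 7 were lower (38.9%) and 4 higher (22.2%), where 37.8% and 32.8% of all genes were. *CBP1*, needed for the cytochrome b message, stood at 0.73 between the treated strains. *MTF1*, the mitochondrial transcription factor, was lower in W303-Δ*sky1* by -0.69 without and by -0.99 with cisplatin (limma, adjusted p = 0.00155 and 8.86e-07). The heme-responsive regulator *HAP1* was higher by 0.82 between the treated strains. *PUF3* stood at -0.05 for the drug in W303, at -0.03 between the untreated strains and at 0.29 between the treated strains (limma, adjusted p = 0.0364).

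**Figure D3:**
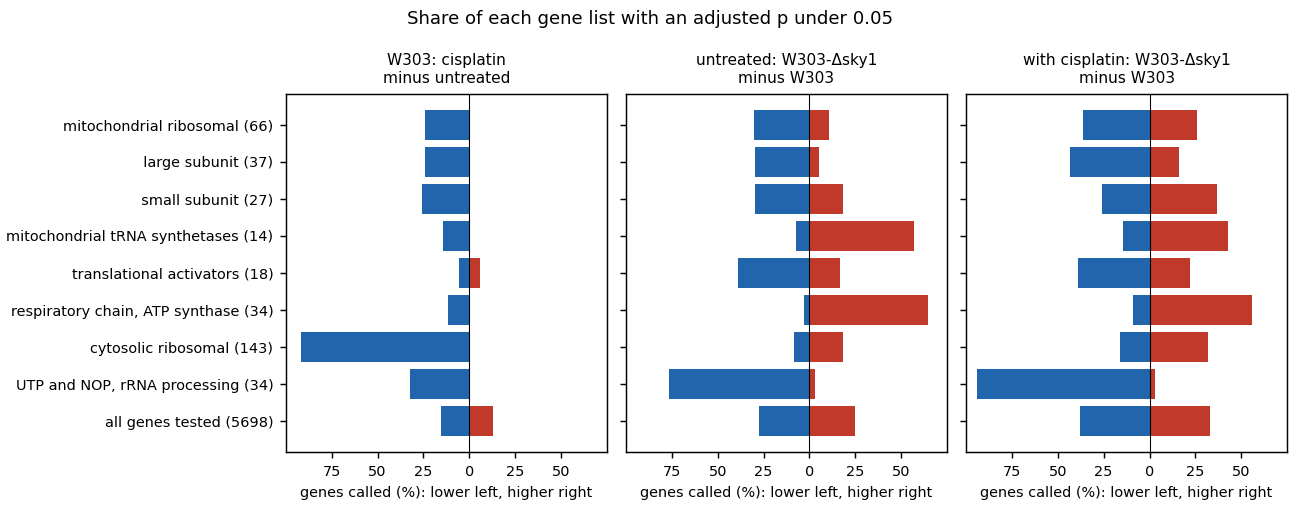
Share of each gene list called lower (blue, to the left) and higher (red, to the right) at an adjusted p under 0.05, with the number of entries in each list in brackets and all genes tested at the bottom. With cisplatin in W303, 24.2% of the mitochondrial and 91.6% of the cytosolic ribosomal protein genes were lower, where 15.3% of all genes were.

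Cytosolic ribosomal protein genes, taken by their RPL and RPS symbols with *RPP0*, *RPP1A*, *RPP1B*, *RPP2A* and *RPP2B* of the stalk, were lower in treated W303 nearly throughout. The list holds 143 entries rather than single genes, since 23 of them are probe sets shared by a pair of near-identical copies, of which 15 have a copy that is also listed alone. In treated W303 131 of the 143 entries were lower (91.6%) and 0 were higher, where 15.3% and 13.2% of all genes were. The median was -0.53, beside the -0.09 of the mitochondrial set. Between the untreated strains 12 were lower (8.39%) and 26 higher (18.2%) with a median of 0.00, where 27.4% and 24.9% of all genes were. Between the treated strains 23 were lower (16.1%) and 46 higher (32.2%) with a median of 0.06, where 37.8% and 32.8% of all genes were. The 34 *UTP* and *NOP* genes serve the processing of cytosolic rRNA. In W303-Δ*sky1* 26 of them were lower without cisplatin (76.5%) and 32 with it (94.1%), with medians of -0.59 and -0.77. Of all genes 27.4% and 37.8% were lower in these comparisons. With cisplatin in W303 11 of the 34 were lower (32.4%), where 15.3% of all genes were.

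The nuclear genes for the respiratory chain and ATP synthase, whose complexes also hold the products of the mitochondrial ribosome, were mostly higher in W303-Δ*sky1*. Of 34, 22 were higher (64.7%) and 1 lower (2.94%) between the untreated strains with a median of 0.32, where 24.9% and 27.4% of all genes were. Between the treated strains 19 were higher (55.9%) and 3 lower (8.82%) with a median of 0.23, where 32.8% and 37.8% of all genes were. In W303 4 were lower (11.8%) and 0 higher with the drug, where 15.3% and 13.2% of all genes were. *SDH2*, for the iron-sulfur subunit of succinate dehydrogenase, had 8.82, 8.86 and 8.99 in untreated W303-Δ*sky1*, against 8.28, 8.04 and 8.27 in untreated W303, a difference of 0.69 (limma, adjusted p = 0.000462), and differed by 0.75 between the treated strains. *COX4*, a subunit of cytochrome c oxidase, had 9.03, 9.10 and 9.00 in untreated W303-Δ*sky1*, against 8.39, 7.76 and 8.12 in untreated W303, a difference of 0.95 (limma, adjusted p = 0.00103), with the lowest W303 signal on replicate 2, the array on which the members were high.

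**Figure D4:**
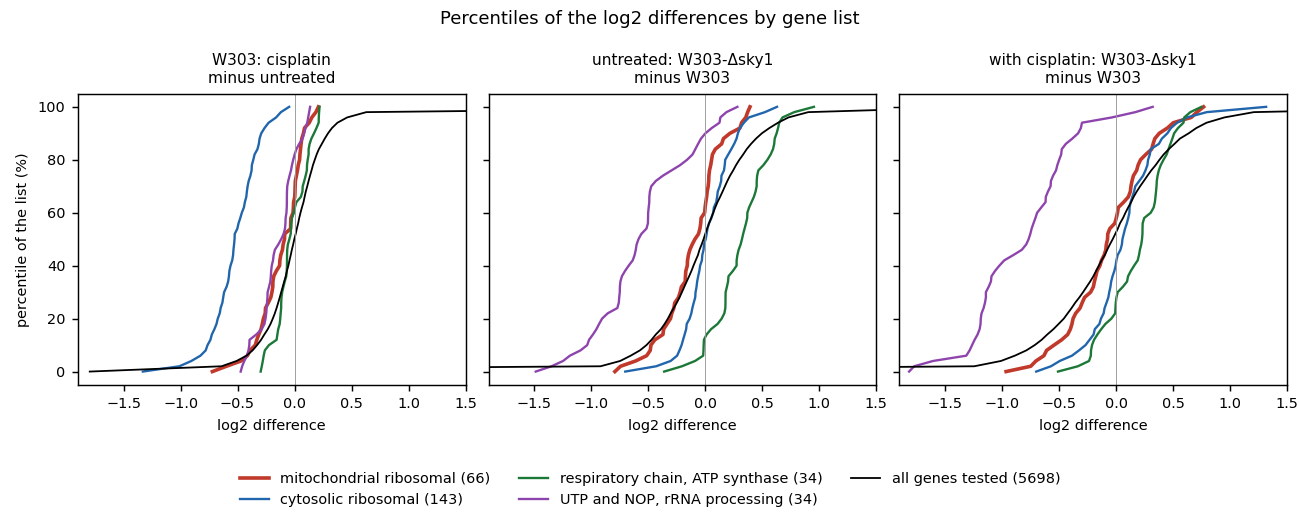
Percentiles of the log2 differences (horizontal axis) for the 66 members, 3 other gene lists and all 5698 genes in the 3 comparisons, where a curve further left holds lower differences. The curve of the members crosses its middle at -0.09, -0.09 and -0.07 from left to right, beside -0.53 for the cytosolic ribosomal protein genes in the left panel and 0.32 for the respiratory chain and ATP synthase genes in the middle panel.

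The members were also counted by descent, with no test between the classes. Between the treated strains 15 of 40 with a counterpart were lower (37.5%) and 11 higher (27.5%) with a median of -0.01, and 8 of 24 without one were lower (33.3%) and 5 higher (20.8%) with a median of -0.10, all near or below the 37.8% lower and 32.8% higher among all genes. With the drug in W303, 10 of 40 and 6 of 24 were lower, which is 25.0% of either class, where 15.3% of all genes were. All 3 members past 1.6-fold between the untreated strains, and 5 of the 6 between the treated strains, have a counterpart, the other being *RSM22*.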

How the data were processed

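Gene expression was measured on 12 Affymetrix Yeast Genome 2.0 arrays, 3 in each of 4 groups, listed as 18 samples because each of the 6 W303 arrays stands in 2 tables. Starting RNA was 10 ng per the labels and 100 ng per the methods of the study. The authors processed the arrays with RMA, run separately on 6 arrays for each table, and deposited log2 signals. The fold changes and p-values deposited by the authors were not used. All 18 sample columns were matched by name, leaving 0. From 10715 probe sets (5714 of *S. cerevisiae*, 4948 of *S. pombe*, 53 of neither), 1 was kept for each gene, that of the highest mean where a gene had several (16 genes), which gave 5698 genes. Several genes share 123 of the probe sets, none of them a member's, and a shared probe set that was tested counts as 1 of these genes. Precision is limited by the 3 arrays in each group.

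Each table was fitted on its own in R 4.3.3 by limma 3.58.1, with moderated variances and Benjamini-Hochberg adjustment. Members and gene lists were chosen with earlier results of these data known. In each comparison the 10 largest increases and the 10 largest decreases among members with an adjusted p under 0.05 are named. So are *MRP8*, *RSM22*, the members of lowest and highest signal, and the mitoribosomal proteins under other names. Genes of the other lists past 1.6-fold are named too, except those of the cytosolic ribosomal, the *UTP* and *NOP*, and the a-specific lists, which are not singled out. *PUF3*, *RSM27*, *MRPL1* and members listed only by their pattern of calls were named after their values were seen. No list was tested as a set.

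Arrays with the same replicate number deviated together from their group means, with r of 0.26, 0.21 and 0.32 in W303, 0.26, 0.22 and 0.43 for the strains without the drug, and 0.44, 0.34 and 0.29 for those with it, against at most 0.13 for unequal numbers. Within a strain the methods give divided cultures, but not which replicate numbers belong together. Alternatives were the replicate number as a block, centring on the median gene, cyclic loess, all probe sets, the mean of a gene's probe sets, dim genes left out, other variance models, array weights, and each array left out. The procedure was tested on simulated data.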

Additional observations from a re-analysis of the deposited data

Results flagged for a closer look

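*RSM10*, for the small subunit protein uS10m, differed between the strains in opposite directions without and with cisplatin. Untreated W303-Δ*sky1* stood at -0.47 relative to W303, and treated W303-Δ*sky1* at 0.19 relative to treated W303, and in both tables the arrays of the strains did not overlap. The treated arrays gave 8.92, 8.85 and 8.87 in W303-Δ*sky1*, against 8.63, 8.74 and 8.70 in W303. The untreated difference lost its call under 6 of 15 alternatives, and the highest untreated W303 signal, 9.80, was that of replicate 2. The difference between these effects was not tested.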

How the results depend on the processing

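Of 47 differences of named members, 33 kept their direction and call under all alternatives run. All of those between the treated strains did so, but with cisplatin in W303 only those of *MRP10* and *RSM19* did. There *RSM10*, *MRP2*, *MRPL15* and *MRPL8* lost their calls only without empirical Bayes (t-test, adjusted p = 0.0864, 0.0586, 0.0522 and 0.0674 in that order). Of their 705 values under alternatives, 659 kept the call, 46 lost it and 0 turned round, and 13 of the losses came from a fit without empirical Bayes. The shares of all genes called under these alternatives are not given here. A wider change in calls therefore cannot be told apart from a change in the members. With all probe sets tested, 12 members were lower between the untreated strains and 8 with cisplatin in W303. Without empirical Bayes, 4 were higher between the untreated strains, and 4 were lower with cisplatin in W303, 0 of them past 1.6-fold. With the replicate number as a block, and with array weights, 1 member was higher with cisplatin in W303. The replicate block changed no other call of a named member, and its counts were within 1.5 times the main ones otherwise. After centring on the median gene, 4 members were higher past 1.6-fold between the treated strains, with a median of -0.039, which was -0.016 after cyclic loess.

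When single arrays were left out, between the untreated strains 4 to 8 members were higher, 11 to 20 lower and 2 to 3 lower past 1.6-fold, with a median of -0.12 to -0.03. With cisplatin in W303, 8 to 22 were lower and 0 to 2 lower past 1.6-fold, with a median of -0.11 to -0.05. Between the treated strains 16 to 19 were higher, 20 to 25 lower, 2 to 4 higher past 1.6-fold and 3 to 4 lower past 1.6-fold, with a median of -0.10 to -0.04. The shares of all genes called with an array left out are not given here. An arm left with 2 arrays was fitted with the spread pooled over both groups. A member without a call is not shown to be unchanged.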
